A study of Homo sapiens with 15 samples.

Results

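HepG2 cells given palmitate and low or medium sodium butyrate were compared with untreated HepG2 cells, to see which genes stood at the control level and which did not. The 3 libraries with 0.5 mM butyrate and the 3 with 1 mM were pooled with equal weight and set against 3 control libraries, so 9 of the 15 libraries of the series entered the comparison. HepG2 is a human liver tumour line, labelled wild type, and stands for liver only as far as a cultured tumour line can. Control cells received neither agent. All butyrate-treated cells also received palmitate, for which the labels write 200 mM (a unit that could not be checked here), and no group received butyrate without palmitate. A palmitate group of 3 libraries, given the fatty acid without butyrate, was set beside them. A further 3 libraries, given palmitate and 1.5 mM butyrate, entered no comparison but were in the fit. They shared in the estimate of the spread, the scaling, the choice of genes tested and each gene's average log2 CPM. Harvest was at 48 h throughout, and all libraries carry a single batch label. By their names, palmitate-only libraries had palmitate for 48 h, whereas butyrate libraries had 24 h of each agent, so the time with palmitate may differ as well. The submitters call the replicates biological without saying that cultures were separate, so p-values measure the spread between these libraries.

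Palmitate is a saturated fatty acid used to make cultured hepatocytes less responsive to insulin. Butyrate is a short-chain fatty acid that gut bacteria make from fibre. It inhibits class I and several class II histone deacetylases, enzymes that take acetyl groups off histones, and it can be activated to butyryl-CoA and burned in mitochondria.

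The 12 libraries compared held 35349827 to 61086976 counts each. As share of the library total, ALB was at 5166 to 7086 CPM (a gene's count scaled to the library). AFP, APOA1, APOB, SERPINA1, FGB, TF and HNF4A were each above 240.1 CPM or at it in every library. TTR and GPC3 were at 13 to 22.6 and 13.2 to 16.6 CPM. All of these were picked as hepatocyte markers that should be high, and TTR and GPC3 were far below the others. Of markers of other cell types, KRT5, MYOG and PTPRC were at 0 in 10, 11 and 6 libraries, and the endothelial PECAM1 was at 3.75 to 8.97 CPM. Palmitate libraries 2 and 3 stood apart in 18 mesenchymal and basal-epithelial genes, among them VIM, KRT7, CD44, MSN, EMP1 and CDH5, a list made after their values were seen. The 18 genes summed to 52.5 to 70.8 CPM in control, 65.6 in palmitate library 1 and 69.5 to 90.6 in the 6 butyrate libraries. In palmitate libraries 2 and 3 they summed to 0.643 and 0.891, with 10 and 6 of the genes at 0 counts. The 3 libraries with 1.5 mM butyrate were low as well, at 3.98 to 4.5 CPM. Whether the cells of these 5 libraries differed from the rest in source was not tested. In bulk RNA, fewer cells of a type and less RNA per cell cannot be told apart.

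**Figure D1:**
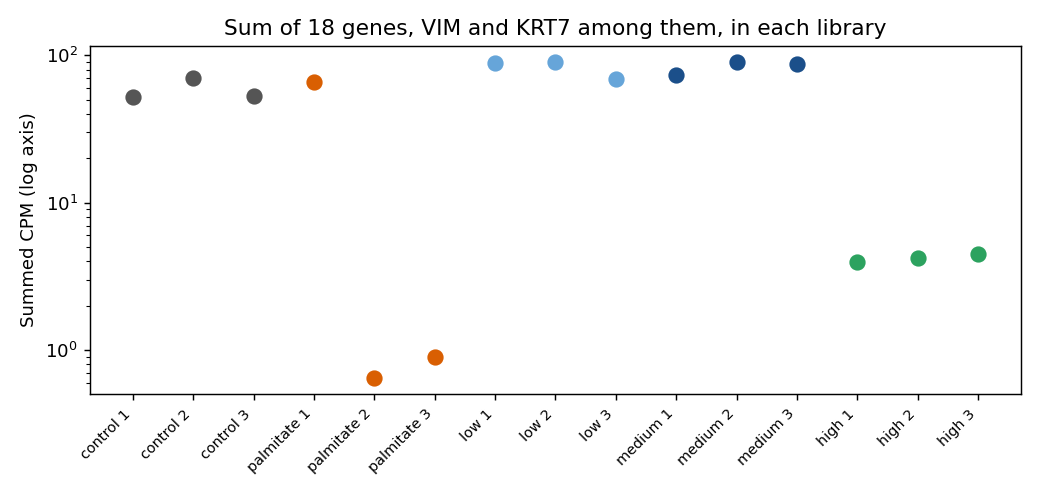
Summed CPM of 18 genes, VIM and KRT7 among them, in each of 15 libraries (log axis), coloured by group, where high stands for 1.5 mM butyrate. Palmitate libraries 2 and 3 lie at 0.643 and 0.891 CPM, those with 1.5 mM butyrate at 3.98 to 4.5 CPM, and the other 10 libraries at 52.5 to 90.6 CPM.

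With the 1.3-fold margin used here, about as many genes stood at control level as above it. Of 20309 genes tested, 5488 were called higher and 4877 lower than control (51.0% called, at an adjusted p under 0.05). A gene was placed at control level where the 95% interval of its difference lay within 1.3-fold in both directions, and as higher or lower where it was called and not so held. By this rule 5030 genes (24.8%) stood at control level, 1241 of them called but small, 5054 (24.9%) were higher and 4070 (20.0%) were lower. The remaining 6155 (30.3%) were undetermined, since they were neither called nor held within the margin. The number at control level follows the margin, and was 2482 at 1.2-fold and 8869 at 1.5-fold. The 6 butyrate libraries did not overlap the 3 controls in 49.0% of genes.

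Rises of 2-fold or more outnumbered falls of that size. Among called genes 2813 were higher by 2-fold or more and 287 were lower by as much. Where the average log2 CPM was under 0 these counts were 1610 and 151, and where it was over 5 they were 66 and 25. The median fold was 2.19 for genes placed higher, with a 10th to 90th percentile range of 1.26 to 10.3, and 1.35 for genes placed lower, with a range of 1.21 to 1.85. Placement went with expression level. Where the average log2 CPM was over 5, 2970 genes were at control level, 1706 lower, 836 higher and 63 undetermined. Of genes under 0 on that scale, 4230 were undetermined, 1720 higher, 231 lower and 6 at control level.

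**Figure D2:**
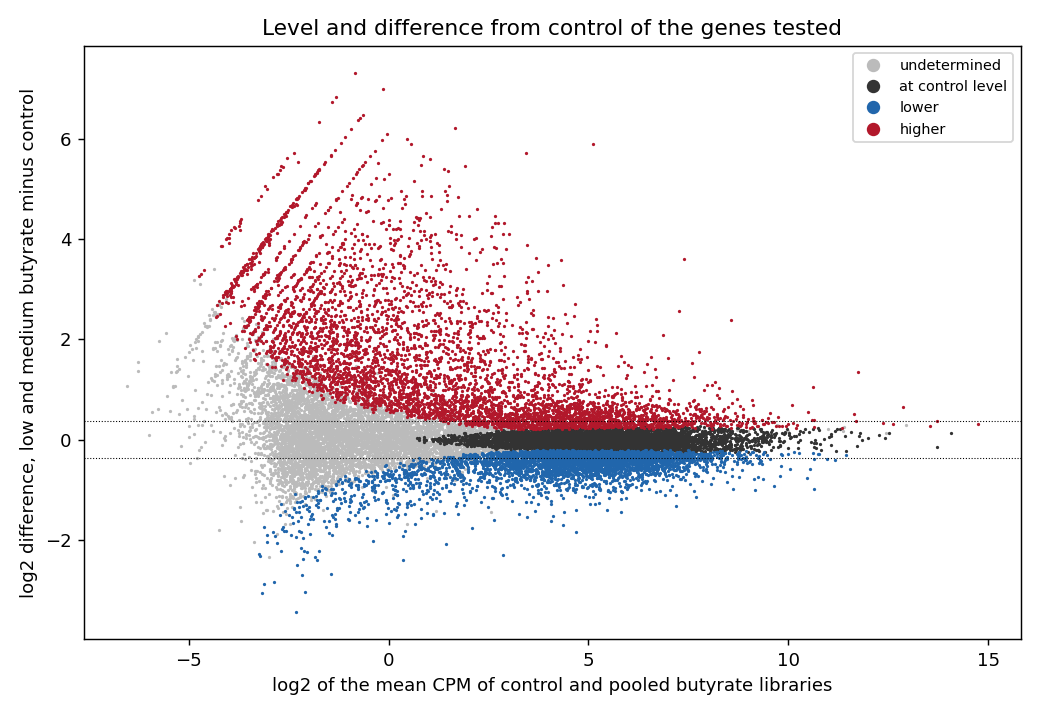
Log2 difference of the pooled low and medium butyrate libraries from control against log2 mean CPM, 1 point for each gene, with the 1.3-fold margin as dotted lines. Genes placed higher spread upward at low levels, while the 2970 well expressed genes at control level form a narrow band; 295 genes at 0 counts in all controls are not drawn.

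Each dose taken alone gave counts of like size. Low butyrate differed from control in 9019 genes (44.4%) and medium butyrate in 9518 (46.9%), both against the same controls. Between medium and low butyrate edgeR called 0 genes (0%) and DESeq2 also called 0, with 490 and 487 genes at an unadjusted p under 0.05. For 10242 genes the interval of the medium to low difference lay within 1.3-fold.

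Palmitate alone was called for 22 genes (0.108%), 7 higher and 15 lower, with adjusted p from 0.00011 to 0.0497. In all 22 the 3 palmitate libraries lay beyond the 3 controls. The genes were called on these same libraries, so this separation is no further evidence, and its share over all genes was not counted. With butyrate, 7 of the 22 stood at control level, 8 lay beyond control on the side away from palmitate, and 7 stayed on palmitate's side. Over all genes tested 24.8% stood at control level, and 53.3% where the average log2 CPM was over 5. The 7 of 22 therefore do not set these genes apart. Both comparisons share the control libraries, so these counts describe the genes and are not independent evidence of a return.

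RAB3B (chr1:51907956-51990764, GRCh38), a small GTPase of regulated secretion, stood at control level. It was at 42.4, 41.5 and 39.4 CPM in control, 23.9, 29.9 and 30.3 with palmitate, 42.8, 45 and 39.2 with low butyrate and 44.9, 43.9 and 39.9 with medium butyrate. All palmitate libraries lay below the rest, and butyrate and control overlapped. The log2 difference from control was 0.05 ± 0.071 (SE), with a 95% interval of -0.10 to 0.20, and that from palmitate was 0.60 ± 0.073 (adjusted p = 5.1e-07). TACC1, a centrosomal protein, was at 119 to 134 CPM in control, 94.7 to 103 with palmitate and 128 to 141 with butyrate, with a log2 difference from control of 0.06 ± 0.053. AHNAK, a very large scaffold protein, was at 282 to 332 CPM in control, 169 to 245 with palmitate and 285 to 343 with butyrate. PLXNC1, a semaphorin receptor, was at 19.2 to 20.9 CPM in control, 11.8 to 16.3 with palmitate and 20.4 to 22.4 with butyrate. In these 4 genes butyrate overlapped control and did not overlap palmitate. The keratin KRT19 was at 235 to 249 CPM in control, 191 to 199.7 with palmitate and 262 to 309 with butyrate: here every butyrate library lay above every control, a called log2 difference of 0.23 ± 0.054 that stayed within the margin. Without control library 2 it was placed higher.

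Of genes called higher with palmitate, PFDN2 and SURF2 stood at control level with butyrate. PFDN2, a prefoldin chaperone subunit, was at 51.8 to 55.5 CPM in control, 63.1 to 71.2 with palmitate and 57.6 to 64.5 with butyrate. Its butyrate libraries lay above all controls, by 0.15 ± 0.054 on the log2 scale (adjusted p = 0.021), within the margin. SURF2 was at 6.43 to 7.64 CPM in control, 9.23 to 10.8 with palmitate and 6.78 to 8.63 with butyrate, and its butyrate and control libraries overlapped. Without control library 2 it was undetermined.

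A second set of 7 genes, called lower with palmitate, lay above control with butyrate. TGM2 (chr20:38127387-38166578), a transglutaminase that cross-links proteins, was at 76.9, 81.6 and 76.7 CPM in control, 56.6, 49.6 and 48.4 with palmitate, 130.3, 125 and 121 with low butyrate and 129.9, 129 and 127 with medium butyrate. All palmitate libraries lay below control and all butyrate libraries above it, with a log2 difference from control of 0.70 ± 0.056 (adjusted p = 1.4e-09). MYEOV was at 16.7 to 18.8 CPM in control, 11 to 12.7 with palmitate and 34.1 to 39.2 with butyrate. KIAA0513 was at 2.71 to 3.14 CPM in control, 1.7 to 2.17 with palmitate and 7.93 to 9.4 with butyrate. Both showed the same order of groups without overlap. ADGRG1, an adhesion G protein-coupled receptor, was at 15.6 to 21.5 CPM in control, 13 to 13.9 with palmitate and 33.2 to 35.2 with butyrate. ENG, a TGF-beta co-receptor, and PALM3 differed from control by 0.41 ± 0.073 and 0.37 ± 0.11 on the log2 scale, and PALM3 lost its call without control library 3. DKK3, a secreted Dickkopf-family protein, was barely detected, with 30 counts in control, 2 with palmitate and 225 with butyrate. Its count ratio of butyrate to control was 3.97, with a counting interval of 2.7 to 6.02.

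ODC1 (chr2:10439968-10448504), the rate-limiting enzyme of polyamine synthesis, crossed control in the other direction. It was at 475, 490.4 and 505 CPM in control, 703, 574 and 625 with palmitate and 374 to 395 with butyrate. Palmitate lay above control and butyrate below it, with a log2 difference from control of -0.34 ± 0.057 (adjusted p = 4.1e-05).

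Genes that stayed on palmitate's side fell into those still low and those still high. FMO5 (chr1:147175351-147243050), a flavin monooxygenase of liver, was at 116 to 125 CPM in control, 95.4 to 100.2 with palmitate and 59.1 to 66.4 with butyrate. Butyrate lay below palmitate without overlap, a log2 difference from control of -0.99 ± 0.053 against -0.32 ± 0.062 with palmitate alone. LPP, a focal adhesion protein, was at 164 to 189 CPM in control, 104 to 144 with palmitate and 121 to 143 with butyrate, and its butyrate and palmitate libraries overlapped. A long intergenic RNA without a symbol (ENSG00000226900) was the third. Among those still high, TNNC2, fast skeletal troponin C, was at 0.384 to 0.935 CPM in control, 1.33 to 2.78 with palmitate and 11 to 14.9 with butyrate, a log2 difference from control of 4.33 ± 0.23. MYH4, a skeletal myosin, had 0 counts in all controls, 1.41, 3.37 and 4.15 CPM with palmitate and 1.59 to 5.93 with butyrate. Against 3 counts per control library it was at least 67.6-fold higher with butyrate. The related MYH8 had 1 count in control and 213 with butyrate, a ratio of 113 (counting interval 20 to 4471). Skeletal myosins are near-identical in stretches, so the split of reads between them is uncertain. MT1G, also still high, is described with the metallothioneins.

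**Figure D3:**
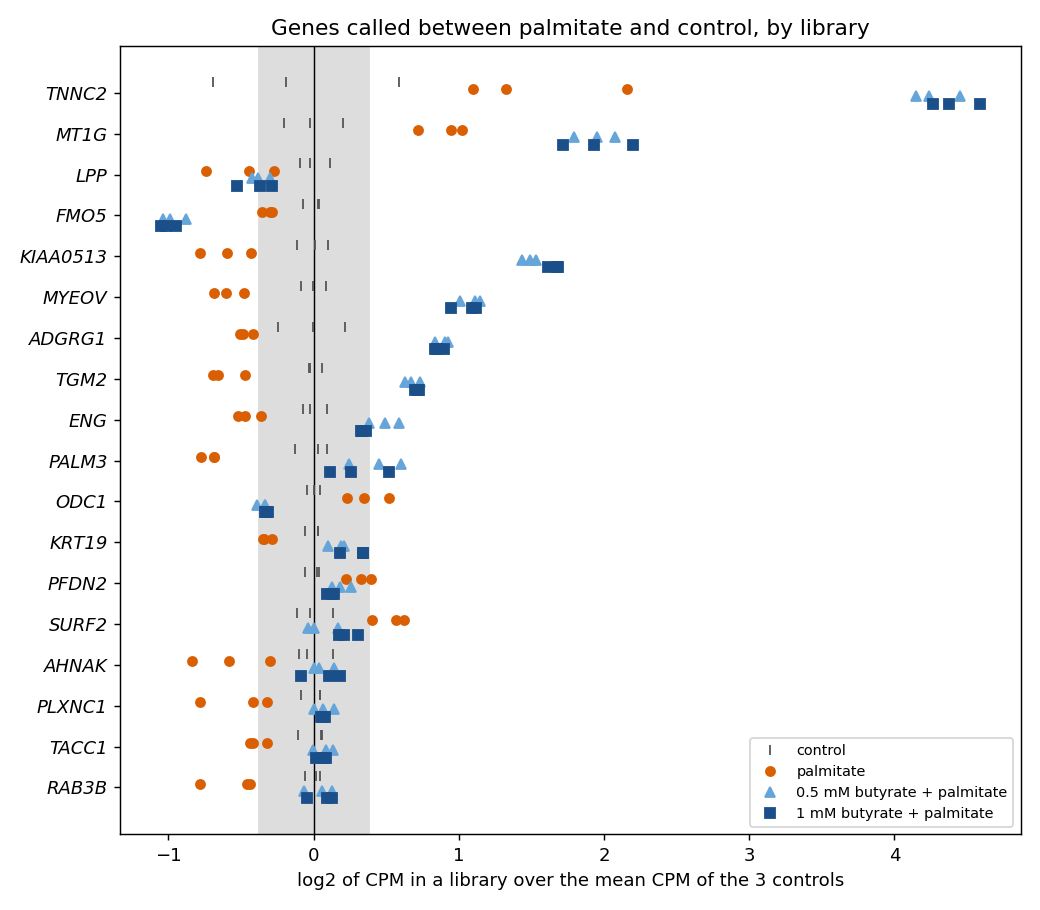
Log2 of CPM over the control mean in each library for 18 of the 22 genes called between palmitate and control, grouped by where they stood with butyrate; the shaded band is the 1.3-fold margin. Butyrate points of RAB3B, TACC1, PLXNC1 and AHNAK lie around the control mean, while those of TGM2, MYEOV and KIAA0513 lie on the side opposite to palmitate. DKK3, MYH4, MYH8 and the gene without a symbol are not drawn.

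The set of palmitate genes was sensitive to the libraries used. The count of 22 was 7, 4 and 8 without control libraries 1, 2 and 3, and 219, 1175 and 7 without palmitate libraries 1, 2 and 3. It was 3 when only the groups compared were fitted. With palmitate library 1 alone, which is then assumed to vary like the other groups, it was 2777, and 20 of the 22 were still called. TGM2 and MYEOV were called in all 22 alternatives for which calls were kept gene by gene. Those at 2-fold, at an adjusted p under 0.01 and with only the groups compared were not among them. At 2-fold neither gene is called, with log2 differences of palmitate from control of -0.606 and -0.590. The part of the 18 mesenchymal and basal genes in these calls was not tested.

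Against palmitate, the butyrate libraries differed in 11282 genes (55.6%). Of the 5030 genes at control level, 602 were called higher than palmitate, 1446 lower and 2982 not called. Those with the smallest adjusted p against palmitate were KRT19, RAB3B and TACC1, described above, and ENTR1, NCEH1 and TLE4. ENTR1, an endosomal trafficking protein, was at 69.9 to 72.8 CPM in control, 81.6 to 87.4 with palmitate and 56.4 to 63.9 with butyrate. NCEH1, a cholesteryl ester hydrolase, was at 52.6 to 59.2 CPM in control, 44.4 to 48.5 with palmitate and 63.1 to 69.3 with butyrate. TLE4, a corepressor of transcription, was at 31 to 35.9 CPM in control, 26.9 to 28.3 with palmitate and 38.3 to 40.9 with butyrate. In these 3 genes every butyrate library lay past control on the side away from palmitate, within the margin, and palmitate itself was not called (adjusted p from 0.11 to 0.13).

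Metallothioneins, small cysteine-rich proteins that bind zinc and copper, rose in 6 of the 7 members tested. In the metallothionein and zinc list, of 13 members tested, 7 were higher, 2 lower, 2 at control level and 2 undetermined. The median log2 difference was 0.74 without MT1H, which was at 0 in control, beside 0.02 over all genes tested. The promoters of MT1X and MT2A are shown first because MTF1, the zinc-sensing activator of these genes, binds metal response elements in them. They are the 200 bases before the start, from the RefSeq promoter table on GRCh38.p14, at chr16:56682270-56682469 on the plus strand and chr16:56608384-56608583 on the plus strand. Capitals mark the core letters TGCGCNC or TGCACNC on either strand, and where matches overlap only the first is marked.
MT1X: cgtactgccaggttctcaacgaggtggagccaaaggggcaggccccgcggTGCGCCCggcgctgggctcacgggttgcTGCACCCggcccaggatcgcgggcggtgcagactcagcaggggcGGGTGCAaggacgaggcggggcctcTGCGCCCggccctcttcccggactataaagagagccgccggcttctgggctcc
MT2A: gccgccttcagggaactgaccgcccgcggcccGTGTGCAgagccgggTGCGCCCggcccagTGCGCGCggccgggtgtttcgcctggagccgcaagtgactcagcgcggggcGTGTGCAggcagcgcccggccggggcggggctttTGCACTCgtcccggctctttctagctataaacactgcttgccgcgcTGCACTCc
MT1X held 4 matches and MT2A 6. Of 27305 promoters of that length, 21.4% held at least 1 and 0.659% held 3 or more. Among promoters of genes tested these shares were 28.1% and 0.912%, and at least 1 stood in 26.4% of those placed higher and 30.8% of those at control level. The zinc exporter SLC30A1, which also rose, held 1. A match describes letters, not measured binding.

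MT1G (chr16:56666731-56668065) was at 12.9, 17.1 and 14.6 CPM in control, 30.2, 24.4 and 28.6 with palmitate, 57.3, 51.4 and 62.6 with low butyrate and 56.5, 68.3 and 48.8 with medium butyrate. Palmitate lay above control and every butyrate library above palmitate, with a log2 difference from control of 1.95 ± 0.11 (adjusted p = 9.9e-12). MT1E was at 25.5 to 31.8 CPM in control, 38.2 to 42.6 with palmitate and 66.5 to 90.7 with butyrate, and MT1A at 0.24 to 0.427 CPM in control, 0.228 to 0.311 with palmitate and 1.79 to 3.07 with butyrate. The other family members are given although the naming rule did not select them. MT2A was at 59.2 to 68.3 CPM in control, 71.2 to 87.5 with palmitate and 118 to 159 with butyrate, MT1F at 8.34 to 11.3 CPM in control, 12.9 to 15.1 with palmitate and 25.1 to 34 with butyrate and MT1X at 0.935 to 1.09 CPM in control, 1.04 to 1.44 with palmitate and 2.64 to 3.16 with butyrate. All 6 were above control in every butyrate library. The zinc exporter SLC30A1 differed by 0.39 ± 0.064, the importer SLC39A4 by -0.46 ± 0.065 and SLC39A14, another importer, stood at control level (0.07 ± 0.054), as did MTF1 (0.08 ± 0.081). Metallothionein genes are near-identical, so the split of reads among them is uncertain.

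**Figure D4:**
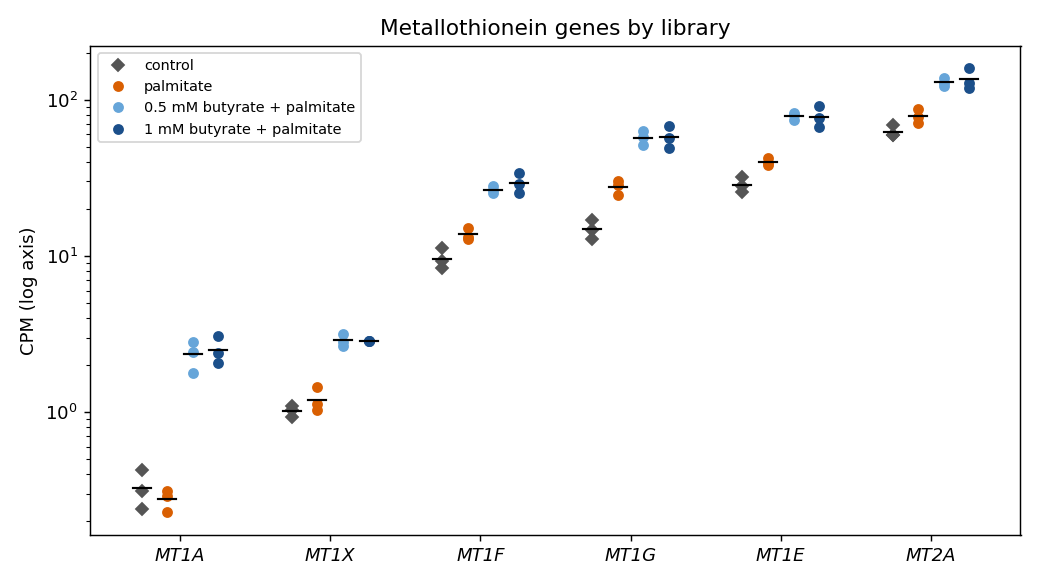
CPM of 6 metallothionein genes in each library (log axis), with points for libraries, bars for means of 3 libraries and colours for groups. All low and medium butyrate libraries lie above all controls in each gene, and palmitate libraries of MT1G lie between, at 24.4 to 30.2 CPM.

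Of genes averaging 2 or more in log2 CPM, the 10 largest rises were of genes at 1.26 CPM or less in every control. The average was taken over all 15 libraries, so genes this low in control were ranked through the butyrate libraries, where they were high. LINC02757, at 1.85 to 3.37 CPM in the 6 butyrate libraries, reached that average through those with 1.5 mM. Weaker genes such as MYH8 and MYH4 are outside this ranking. EEF1A2 (chr20:63488012-63499322), a translation elongation factor of muscle and neurons, was at 1.26, 1.02 and 1.13 CPM in control, 0.622, 1.53 and 1.06 with palmitate, 71.3, 65.1 and 65.4 with low butyrate and 69.5, 68.4 and 67.4 with medium butyrate. Palmitate overlapped control, and the butyrate libraries lay close together far above, a log2 difference of 5.90 ± 0.14 (adjusted p = 9.4e-18). CRABP2, a carrier of retinoic acid, was at 0.213 to 0.545 CPM in control, 0.29 to 0.72 with palmitate and 19.4 to 23.7 with butyrate. SLC17A8, a vesicular glutamate transporter, was at 0.0779 to 0.0872 CPM in control, 0.0888 to 0.206 with palmitate and 4.93 to 7.51 with butyrate. LRP2, the endocytic receptor megalin, was at 0.156 to 0.349 CPM in control, 0.111 to 0.326 with palmitate and 5.88 to 7.36 with butyrate. SYNGR1, a synaptic vesicle protein, was 31.1-fold higher, the desaturase family member FADS6 44.3-fold and the phosphatase PHOSPHO1 29.2-fold. The secreted proteins SCUBE1 and FBLN2 were 41.2-fold and 29.4-fold higher, and the non-coding LINC02757 59.6-fold. With palmitate alone their adjusted p ran from 0.378 to 0.997.

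Among genes passing the same average over all 15 libraries, the largest falls were smaller in fold. PCYT1B (chrX:24558087-24672677), an isoform of the enzyme that paces phosphatidylcholine synthesis, was at 37, 41.3 and 41.9 CPM in control, 34, 35.4 and 35.1 with palmitate, 12.2, 11.2 and 13.5 with low butyrate and 10.1, 9.77 and 10.2 with medium butyrate. All butyrate libraries lay below all others, with a log2 difference of -1.85 ± 0.069 (adjusted p = 1.1e-14). EDN1, the vasoconstrictor endothelin 1, was at 30.4 to 32 CPM in control, 22.7 to 29.6 with palmitate and 8.7 to 10.3 with butyrate. FAS, the death receptor, was at 17.9 to 19.3 CPM in control, 17.4 to 21.2 with palmitate and 5.47 to 8.47 with butyrate. ATF5, a stress-induced transcription factor, was at 15.7 to 17.6 CPM in control, 17.1 to 23.5 with palmitate and 4.66 to 6.42 with butyrate. The pseudouridine synthase PUS10 was 3.1-fold lower, the caveola protein CAVIN2 2.71-fold and FAM110C 2.81-fold. The non-coding LINC01146 and NPSR1-AS1 were 2.74-fold and 2.89-fold lower. The latter is an antisense gene, and without a stated strand setting its reads cannot be told apart from those of its partner.

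The counts of each gene list stand beside those of all genes, of which 24.9% were higher, 20.0% lower and 24.8% at control level. Among genes with an average log2 CPM over 5 the shares were 15%, 30.6% and 53.3%, and a list near either set of shares does not stand apart. Of insulin signalling genes, of 41 members tested, 5 were higher, 14 lower, 18 at control level and 4 undetermined, with a median log2 difference of -0.12. The insulin receptor INSR was at 64.2 to 72.5 CPM in control, 50 to 67 with palmitate and 55 to 65.3 with butyrate, called by -0.21 ± 0.078 but held within the margin. Its adaptor IRS1 was at 133 to 141 CPM in control, 105 to 140.4 with palmitate and 139 to 153 with butyrate, with overlap, and IRS2 at 2.4 to 2.99 CPM in control, 2.25 to 2.65 with palmitate and 2.34 to 2.91 with butyrate, also with overlap. PDPK1, the kinase that activates AKT, was at 43.6 to 48.5 CPM in control, 41.8 to 46.5 with palmitate and 28.5 to 33.9 with butyrate. RICTOR, a subunit of mTOR complex 2, differed by -0.54 ± 0.056, and TRIB3, a pseudokinase that binds AKT, by -0.61 ± 0.055. FOXO1, the transcription factor that insulin excludes from the nucleus, and the stress kinase MAPK8 stood at control level (-0.16 ± 0.08 and -0.12 ± 0.053).

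Among genes of glucose output, of 16 members tested, 6 were higher, 2 lower, 7 at control level and 1 undetermined. CREB3L3, a fasting-induced transcription factor of liver, was at 5.95 to 8.66 CPM in control, 6.17 to 7.82 with palmitate and 34.6 to 42.8 with butyrate. The gluconeogenic enzymes PCK1 and G6PC1 were at 0.256 to 0.523 CPM in control and 1.4 to 2.25 with butyrate, and at 0.128 to 0.371 CPM in control and 0.399 to 1.02 with butyrate, both low throughout. The mitochondrial isoform PCK2 was at 137 to 142 CPM in control and 159 to 169 with butyrate, and stayed within the margin. The glucocorticoid target KLF15 was 9.03-fold higher. In glycolysis, of 28 members tested, 8 were higher, 5 lower, 11 at control level and 4 undetermined. The hexokinase HK1 was at 7.32 to 9.92 CPM in control, 6.27 to 8.29 with palmitate and 20.6 to 30.5 with butyrate, the phosphofructokinase PFKP differed by 0.74 ± 0.065 and PGAM1 stood at control level (0.03 ± 0.058).

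Most glycogen genes lay below control: of 18 members tested, 2 were higher, 12 lower, 4 at control level and 0 undetermined, with a median of -0.37 beside 0.02 for all genes. GBE1, the branching enzyme, was at 74.5 to 86.9 CPM in control, 79.3 to 96.2 with palmitate and 35.2 to 44.9 with butyrate. PHKA2, a phosphorylase kinase subunit, was at 99.1 to 109.8 CPM in control, 82.7 to 105 with palmitate and 50.5 to 62 with butyrate. PYGM, the muscle phosphorylase, rose 11.2-fold from a low level, and the brain form PYGB stood at control level (0.13 ± 0.056).

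**Figure D5:**
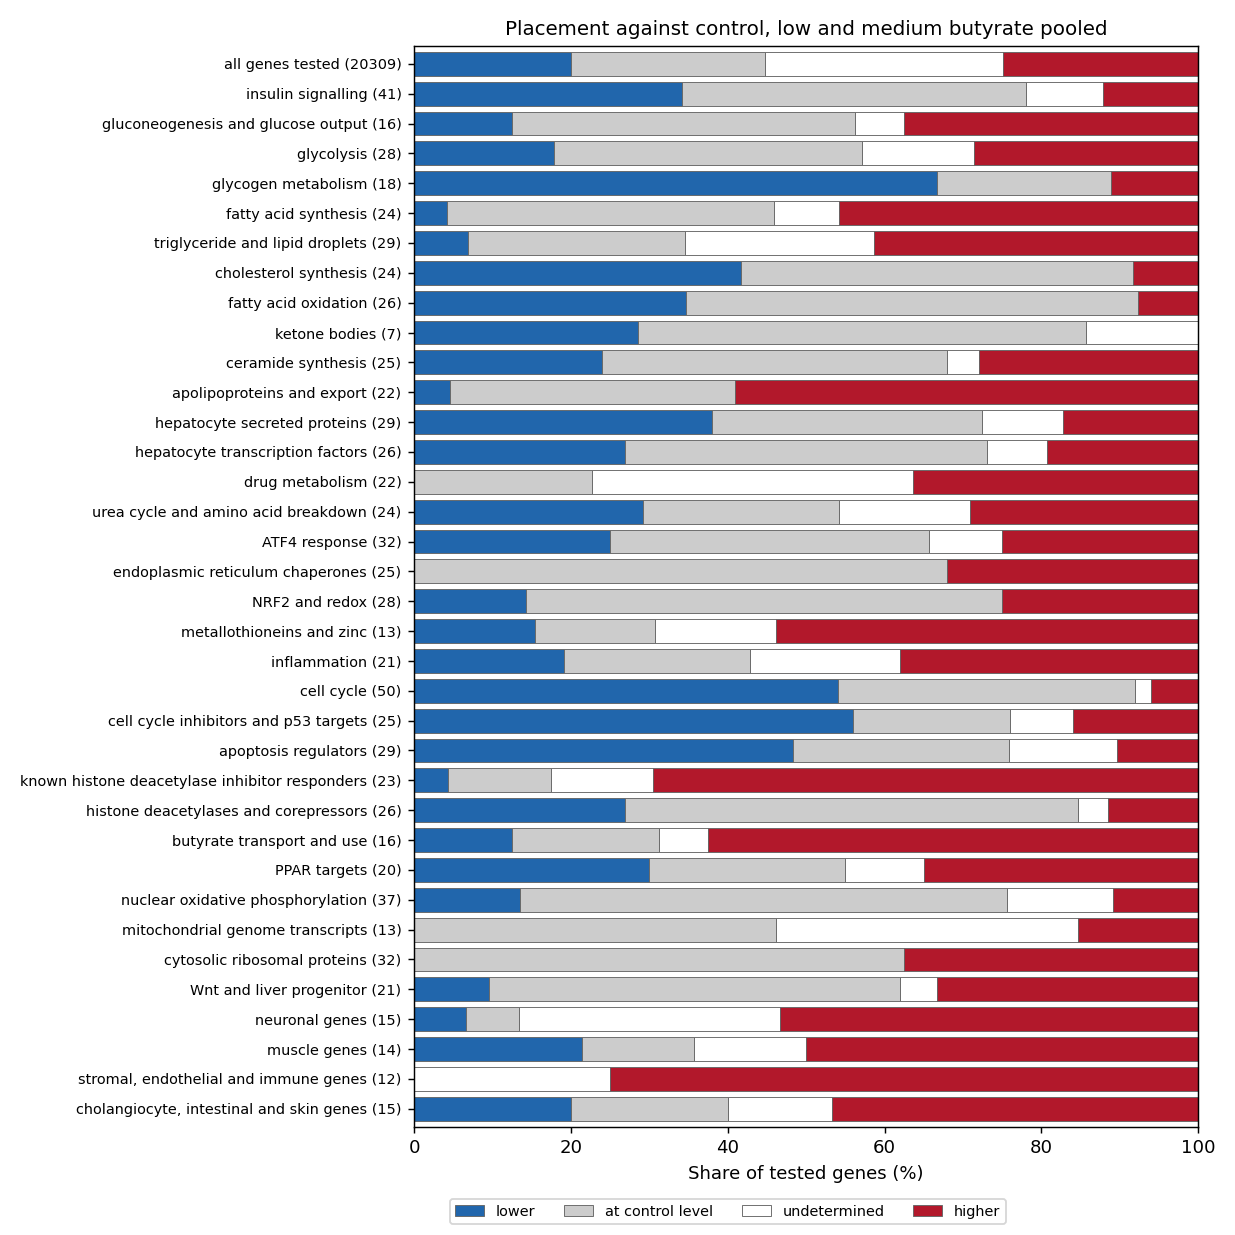
Share of the tested members of each gene list, and of all 20309 genes tested, that were lower than control, at control level, undetermined or higher with low and medium butyrate; numbers tested are in parentheses. Glycogen metabolism has 12 of 18 lower, apolipoproteins and export 13 of 22 higher, and endoplasmic reticulum chaperones 17 of 25 at control level.

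In fatty acid synthesis, of 24 members tested, 11 were higher, 1 lower, 10 at control level and 2 undetermined, with a median of 0.35. FASN (chr17:82078333-82098332), fatty acid synthase, was at 2065, 1930.0 and 1846 CPM in control, 1260.0, 2206 and 1814 with palmitate, 5085, 4765 and 4705 with low butyrate and 5166, 5123 and 4931 with medium butyrate. Palmitate overlapped control and every butyrate library lay above both, a log2 difference of 1.35 ± 0.11 (adjusted p = 2.4e-09). SREBF1, the transcription factor that drives these genes, was at 84.5 to 88.8 CPM in control, 79.9 to 103 with palmitate and 163 to 176 with butyrate. The acyl-CoA synthetase ACSL1 and the desaturase-like FADS3 were 2.25-fold and 2.48-fold higher. SCD, stearoyl-CoA desaturase, stood at control level, at 3202 to 3735 CPM in control, 3201 to 3386 with palmitate and 3553 to 4034 with butyrate, as did the elongase ELOVL1 (0.06 ± 0.056). Among triglyceride and droplet genes, of 29 members tested, 12 were higher, 2 lower, 8 at control level and 7 undetermined, with a median of 0.43. The acyltransferases GPAM and GPAT4 differed by 0.84 ± 0.058 and 0.71 ± 0.052. Of the droplet coats, PLIN4 was 2.67-fold higher and PLIN2 overlapped control, at 834 to 947 CPM in control, 932 to 1082 with palmitate and 696 to 978 with butyrate.

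Of cholesterol synthesis genes, of 24 members tested, 2 were higher, 10 lower, 12 at control level and 0 undetermined, with a median of -0.22. ACAT2, the thiolase at the head of the pathway, was at 195 to 217 CPM in control, 199.8 to 249 with palmitate and 76.3 to 89.6 with butyrate. The sterol dehydrogenase NSDHL differed by -0.48 ± 0.06, and mevalonate kinase MVK stayed within the margin (-0.16 ± 0.051). In fatty acid oxidation, of 26 members tested, 2 were higher, 9 lower, 15 at control level and 0 undetermined. The peroxisomal enzymes EHHADH and ACAA1 differed by -0.96 ± 0.061 and -0.70 ± 0.058. The mitochondrial CPT1A, the entry step for long chains, was at 91.3 to 100.2 CPM in control, 82.2 to 95.7 with palmitate and 83.9 to 96 with butyrate, with overlap. Among 7 ketone body genes 0 were higher, 2 lower and 4 at control level. The lower ones were BDH1, hydroxybutyrate dehydrogenase (-0.90 ± 0.08), and SLC16A6, a ketone body exporter (-1.02 ± 0.072). In ceramide synthesis, which starts from palmitoyl-CoA, of 25 members tested, 7 were higher, 6 lower, 11 at control level and 1 undetermined. CERS1 was at 3.24 to 3.42 CPM in control, 4.27 to 4.7 with palmitate and 6.39 to 8.88 with butyrate, DEGS2 was 3.56-fold higher, and the liver ceramide synthase CERS2 differed by -0.36 ± 0.054.

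Apolipoprotein and lipid export genes were mostly above control: of 22 members tested, 13 were higher, 1 lower, 8 at control level and 0 undetermined, with a median of 0.43. APOB, the scaffold of very low density lipoprotein, was at 6238, 5673 and 5482 CPM in control, 4151, 5723 and 5403 with palmitate, 9444, 9138 and 9075 with low butyrate and 9717, 8908 and 8348 with medium butyrate. Every butyrate library lay above every other library, with a log2 difference from control of 0.65 ± 0.091. APOA1, the main protein of high density lipoprotein, was at 806 to 873 CPM in control, 736 to 953 with palmitate and 1209 to 1468 with butyrate. PLTP, phospholipid transfer protein, was 3.09-fold higher, CETP 7.52-fold and APOA4 2.96-fold, while APOA5 stood at control level (-0.02 ± 0.06).

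Hepatocyte secreted proteins moved both ways: of 29 members tested, 5 were higher, 11 lower, 10 at control level and 3 undetermined. ITIH2, an inter-alpha-trypsin inhibitor chain, was at 2060.0 to 2204 CPM in control, 2169 to 2295 with palmitate and 1023 to 1156 with butyrate, and the related ITIH3 differed by -0.91 ± 0.074. FGA, a fibrinogen chain, was at 1049 to 1138 CPM in control, 1029 to 1249 with palmitate and 635 to 699.7 with butyrate. ALB was at 5441 to 5710.5 CPM in control, 5230.3 to 7585 with palmitate and 6619 to 7246 with butyrate, while AFP overlapped control, at 4007 to 4062 CPM in control, 3971 to 5804 with palmitate and 3934 to 4429 with butyrate. IGFBP1, which insulin lowers in liver, was at 486 to 666 CPM in control, 423 to 658 with palmitate and 242 to 462 with butyrate, a log2 difference of -0.61 ± 0.17. Of the hepatocyte transcription factors, of 26 members tested, 5 were higher, 7 lower, 12 at control level and 2 undetermined. HNF4A and FOXA2 stayed within the margin (-0.22 ± 0.059 and 0.15 ± 0.055), and CEBPD, the pregnane X receptor NR1I2 and HNF4G were 2.12-fold, 1.99-fold and 1.62-fold lower.

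Drug metabolism had no member placed lower: of 22 members tested, 8 were higher, 0 lower, 5 at control level and 9 undetermined. CYP4F2, a fatty acid hydroxylase, was at 5.48 to 7.5 CPM in control, 6.11 to 7.29 with palmitate and 24.9 to 31.1 with butyrate. CYP1A1, a target of the aryl hydrocarbon receptor, was 3.79-fold higher and the sulfotransferase SULT2A1 1.46-fold. In urea cycle and amino acid breakdown, of 24 members tested, 7 were higher, 7 lower, 6 at control level and 4 undetermined. BHMT, which remethylates homocysteine, was at 6.04 to 8.02 CPM in control, 6.77 to 8.85 with palmitate and 40.1 to 54.9 with butyrate. ASS1, argininosuccinate synthase, was at 27.7 to 29.5 CPM in control, 27.1 to 32.4 with palmitate and 54.1 to 60.1 with butyrate, and the tyrosine pathway enzymes HPD and HGD differed by -0.45 ± 0.05 and 0.08 ± 0.054, the latter at control level.

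In the ATF4 response, of 32 members tested, 8 were higher, 8 lower, 13 at control level and 3 undetermined. Set against palmitate instead, 3 were higher and 14 lower, beside 28.8% higher and 26.8% lower over all genes tested. Besides ATF5 and TRIB3, both lower, the folate enzyme ALDH1L2 was at 1.66 to 2.16 CPM in control, 1.61 to 2.3 with palmitate and 5.07 to 6.54 with butyrate. ASNS, asparagine synthetase, was at 1.2 to 1.4 CPM in control, 1.55 to 1.9 with palmitate and 1.7 to 2.16 with butyrate, and PHGDH, the first enzyme of serine synthesis, stayed within the margin (0.19 ± 0.056). Of endoplasmic reticulum chaperones, of 25 members tested, 8 were higher, 0 lower, 17 at control level and 0 undetermined. HERPUD1, a degradation factor, was at 82.4 to 83.8 CPM in control, 82.1 to 92.8 with palmitate and 125 to 141 with butyrate, the stress factor CREB3L2 differed by 0.46 ± 0.068 and the disulfide isomerase P4HB by 0.39 ± 0.058. In the NRF2 and redox list, of 28 members tested, 7 were higher, 4 lower, 17 at control level and 0 undetermined. AKR1C1, an aldo-keto reductase, was 1.99-fold higher, the exporter ABCC2 was 1.29-fold lower, and glutathione reductase GSR stood at control level (0.10 ± 0.052). Of inflammation genes, of 21 members tested, 8 were higher, 4 lower, 5 at control level and 4 undetermined. The chemokine CCL20 was at 115 to 131 CPM in control, 136 to 199.6 with palmitate and 555 to 687 with butyrate, TNFAIP2 was 4.85-fold higher, the Toll-like receptor adaptor MYD88 was 2.02-fold lower and STAT3 stood at control level (0.09 ± 0.053).

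Of cell cycle genes, of 50 members tested, 3 were higher, 27 lower, 19 at control level and 1 undetermined, with a median of -0.31. Against palmitate 37 were lower and 5 higher, beside 26.8% lower and 28.8% higher over all genes tested. CCNA2, cyclin A2, was at 146 to 151 CPM in control, 157 to 179 with palmitate and 69.7 to 76.8 with butyrate. TYMS, thymidylate synthase, was at 44.6 to 48.9 CPM in control, 46 to 48.8 with palmitate and 18.3 to 20.5 with butyrate, and the checkpoint kinase BUB1 differed by -0.63 ± 0.052. The helicase subunit MCM7 and cyclin D1 (CCND1) were called but within the margin (-0.20 ± 0.047 and 0.19 ± 0.058). Of cell cycle inhibitors and p53 targets, of 25 members tested, 4 were higher, 14 lower, 5 at control level and 2 undetermined. CDKN1A (chr6:36676460-36687339), the cyclin-dependent kinase inhibitor p21, was among the higher ones. It was at 67.2, 66.6 and 66.7 CPM in control, 55.9, 62.1 and 58.1 with palmitate, 103, 99.6 and 109 with low butyrate and 111, 115 and 108 with medium butyrate. Every butyrate library lay above every control and palmitate library, with a log2 difference from control of 0.69 ± 0.053 (adjusted p = 7.3e-10). The inhibitor CDKN2C differed by -0.83 ± 0.076, while RBL2 stayed within the margin (-0.17 ± 0.054). Of apoptosis regulators, of 29 members tested, 3 were higher, 14 lower, 8 at control level and 4 undetermined. CFLAR, an inhibitor of caspase 8, was at 47.6 to 48.6 CPM in control, 47 to 48.3 with palmitate and 21 to 22.5 with butyrate, the pro-apoptotic BMF at 9.64 to 11.9 CPM in control, 8.35 to 9.87 with palmitate and 20.5 to 23 with butyrate, and the death receptor TNFRSF10B stood at control level (-0.03 ± 0.049).

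The 200 bases before the start of CDKN1A and of RAB3B set a gene above control beside one at control level, because Sp1-type factors that recruit histone deacetylases bind GC boxes. They lie at chr6:36678514-36678713 on the plus strand and at chr1:51990701-51990900 on the minus strand (RefSeq, GRCh38.p14). The RefSeq starts used fall inside the GENCODE spans printed for both genes. Here capitals mark GGGCGG on either strand.
CDKN1A: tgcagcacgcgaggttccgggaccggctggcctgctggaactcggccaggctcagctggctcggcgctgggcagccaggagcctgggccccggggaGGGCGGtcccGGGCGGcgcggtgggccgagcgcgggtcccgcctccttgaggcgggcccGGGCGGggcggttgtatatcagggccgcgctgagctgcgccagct
RAB3B: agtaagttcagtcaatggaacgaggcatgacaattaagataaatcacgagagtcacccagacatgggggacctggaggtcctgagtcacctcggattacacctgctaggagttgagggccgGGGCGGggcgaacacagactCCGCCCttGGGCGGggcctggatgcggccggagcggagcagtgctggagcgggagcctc
With overlapping matches marked once, each held 3, and with overlaps counted CDKN1A held 4 and RAB3B 3. At least 1 was found in 39.9% of all promoters in the table, in 59.8% of those of genes placed higher, 63.1% of lower, 67.4% of at control level and 48.6% of undetermined genes. Symbols matched a promoter for 12503 genes tested.

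Typical responders to histone deacetylase inhibition were mostly above control: of 23 members tested, 16 were higher, 1 lower, 3 at control level and 3 undetermined, with a median of 0.71. This list was chosen with earlier results of these data known, so its counts are a description. EEF1A2 and CRABP2 on it are also among the 10 largest rises. CDH1, E-cadherin, was at 34.7 to 37.2 CPM in control, 25.4 to 32.4 with palmitate and 91.5 to 109.7 with butyrate, beside EEF1A2 and CRABP2 above. DHRS2, a reductase on this list, stood at control level from a high level, at 3644 to 3768 CPM in control, 4135 to 4404 with palmitate and 3437 to 4239 with butyrate. Of the deacetylases and corepressors themselves, of 26 members tested, 3 were higher, 7 lower, 15 at control level and 1 undetermined. HDAC1 stood at control level (-0.08 ± 0.049), HDAC5 differed by 0.42 ± 0.056, the demethylase KDM1A by -0.35 ± 0.054, and HDAC7 was at 28.1 to 29.6 CPM in control, 24.7 to 26.2 with palmitate and 13.6 to 16.1 with butyrate. Of genes for butyrate transport and use, of 16 members tested, 10 were higher, 2 lower, 3 at control level and 1 undetermined, with a median of 0.44. The acyl-CoA synthetases ACSS1 and ACSM3 were at 43.6 to 49.5 CPM in control and 129 to 133 with butyrate, and at 38.4 to 39.7 CPM in control and 66.9 to 76.8 with butyrate, with ACSM1 3.5-fold higher. The monocarboxylate transporter SLC16A1 stayed within the margin (0.15 ± 0.049). Of PPAR targets, of 20 members tested, 7 were higher, 6 lower, 5 at control level and 2 undetermined. PPARG itself was 1.95-fold lower, TXNIP, a brake on glucose uptake, was at 86.6 to 104 CPM in control, 90.3 to 106 with palmitate and 132 to 180.5 with butyrate, and PDK4, which restrains pyruvate oxidation, rose 6.14-fold to under 1 CPM.

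Of nuclear oxidative phosphorylation genes, of 37 members tested, 4 were higher, 5 lower, 23 at control level and 5 undetermined. Complex I subunits differed among themselves, NDUFB10 by 0.47 ± 0.056, NDUFS1 by -0.40 ± 0.049 and NDUFA10 by -0.34 ± 0.056, with NDUFV1 within the margin (0.20 ± 0.053). Of mitochondrial genome transcripts, of 13 members tested, 2 were higher, 0 lower, 6 at control level and 5 undetermined. Those higher were MT-CO3 and MT-CYB (0.26 ± 0.099 and 0.23 ± 0.089), which lost the call in some alternatives. Of cytosolic ribosomal protein genes, of 32 members tested, 12 were higher, 0 lower, 20 at control level and 0 undetermined, with a median of 0.21. RPS18 was at 1129 to 1227 CPM in control, 1129.6 to 1279.5 with palmitate and 1496 to 1930.4 with butyrate, RPL18 and RPL32 differed by 0.48 ± 0.088 and 0.41 ± 0.09, and RPS6 stayed within the margin (0.20 ± 0.056).

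Genes typical of other lineages are set beside the 24.9% of all genes placed higher, a share that was 37.9% where the average log2 CPM was 0 to 2. Among protein-coding genes alone it was 51.2% at 0 to 2 and 47.4% under 0, and a list near these shares does not stand apart. Of Wnt and liver progenitor genes, of 21 members tested, 7 were higher, 2 lower, 11 at control level and 1 undetermined. DKK1, a secreted Wnt inhibitor, was at 982 to 1065 CPM in control, 1119 to 1213 with palmitate and 1992 to 2264 with butyrate, CD24 was 4.2-fold higher, NKD1 differed by 0.57 ± 0.052, and the Wnt target AXIN2 stood at control level (-0.07 ± 0.049). Of neuronal genes, of 15 members tested, 8 were higher, 1 lower, 1 at control level and 5 undetermined. SYP, synaptophysin, was at 2.11 to 2.43 CPM in control, 2.06 to 2.34 with palmitate and 9.6 to 13 with butyrate, and ENO2 overlapped control (0.07 ± 0.087). Of muscle genes, of 14 members tested, 7 were higher, 3 lower, 2 at control level and 2 undetermined. TNNC1, cardiac troponin C, was at 30.7 to 35.4 CPM in control, 33 to 35.9 with palmitate and 88.8 to 99.3 with butyrate, TNNT1 and desmin (DES) were 6.96-fold and 20.3-fold higher, and the embryonic myosin MYH3 stood at control level (0.06 ± 0.11). Of cholangiocyte, intestinal and skin genes, of 15 members tested, 7 were higher, 3 lower, 3 at control level and 2 undetermined. The mucin MUC13 was at 8.23 to 10.2 CPM in control, 8.17 to 10.2 with palmitate and 25 to 29.5 with butyrate, villin (VIL1) differed by 0.36 ± 0.062 and EPCAM by -0.41 ± 0.075.

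Stromal, endothelial and immune genes were measured as markers of other cells: of 12 members tested, 9 were higher, 0 lower, 0 at control level and 3 undetermined. COL1A1, a fibrillar collagen, was at 0.0436 to 0.32 CPM in control, 0 to 0.137 with palmitate and 2.25 to 3.32 with butyrate. The monocyte marker CD14 was 4.86-fold higher. VIM and CDH5 were among the undetermined. Beside these values, the 18 mesenchymal and basal genes summed to 52.5 to 70.8 CPM in control and 69.5 to 90.6 with butyrate, and PTPRC did not exceed 0.0576 CPM in any library. The part of other cells in these rises was not tested.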

How the data were processed

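HepG2 RNA was measured as raw counts per Ensembl gene in the deposited table, which also holds FPKM values the authors derived from those counts (checked: every gene with 100 counts in all libraries matched within 1%). FastQC, HISAT2, featureCounts, DESeq2, GRCh38 and hg38 are listed in the submitters' processing notes, with versions and strand setting not given in the sources used here. Counts from 1 to 30 were even in 68.2% of cases, against 50.5% of counts from 100 to 1000, so both mates may have been counted. Intervals of count ratios cover counting error only, and those of log2 differences include the spread between libraries. The former take each count as a separate fragment and would be too narrow if both mates were counted. Of 39133 genes, 20309 passed filterByExpr and were fitted by edgeR 4.0.16 (TMM, glmQLFit, glmQLFTest, R 4.3.3) over all 15 libraries, with Benjamini-Hochberg adjustment; SE derive from that test. CPM use TMM-scaled totals, except in the marker check. Named genes were the 10 largest rises and falls at an average log2 CPM of at least 2 with no overlap of the groups, all palmitate-called genes, up to 3 called and 1 control-level member per list, 6 control-level genes apart from palmitate, and a panel, some of which are not reported here; further genes named among metallothioneins and markers were chosen after their values were seen. Members and lists were chosen with earlier results of these data known. Alternatives used DESeq2 1.42.0, limma 3.58.1 on log2(FPKM + 1), other scalings, filters, margins and left-out libraries. Positions are GENCODE 29.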

Additional observations from a re-analysis of the deposited data

Results flagged for a closer look

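In 3 of 65 genes examined, 1 of the 6 butyrate libraries lay far from the other 5, as chance does in about 1 of 20 such groups. LINC02757 was at 1.85 CPM in low butyrate library 2 and at 2.81 to 3.37 in the others. ODC1 was at 374 CPM in low butyrate library 2 and at 388 to 395 in the others. PDK4 was at 0.964 CPM in medium butyrate library 2 and at 0.459 to 0.588 in the others. Each of these libraries still lay on the same side of all controls as the rest of its group.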

How the results depend on the processing

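The counts against control rested little on tool or scaling, and the palmitate calls rested on both. The 22 palmitate genes became 220 with DESeq2, 40 with library totals alone, 600 without a filter, 9 and 7 with limma on FPKM plus 1 and plus 0.1, 6 at an adjusted p under 0.01, 4 at 2-fold, 3 with only the groups compared, 4 to 1175 when 1 library was left out and 2777 without palmitate libraries 2 and 3, an alternative chosen after seeing the data. In the same order, the 7 at control level became 87, 11, 211, 3 and 2, 2 with only the groups compared, 0 to 533 with 1 library left out and 1334 without palmitate libraries 2 and 3; they were 4 and 11 at margins of 1.2-fold and 1.5-fold, and 86 when DESeq2 chose the genes.

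The 5030 genes at control level became 8402 without a filter, 13077 on FPKM plus 1, where the pseudocount narrows weak genes by construction, 2482 and 8869 at the other margins, and 4320 to 4944 with 1 library left out. At 2-fold, 2813 were higher and 287 lower than control (4808 to 5418 and 4272 to 4865 called with 1 library left out), 3458 differed from palmitate (10144 to 11225), and 2831 and 3053 differed from control at low and medium butyrate alone (7859 to 8171 and 8339 to 9049). Medium against low butyrate gave 39 calls without a filter, 1 and 1 on FPKM, 1 with only these groups and 0 with any library left out. Under the replicate block, 5442 were higher, 4902 lower, 5073 at control level and 15 called for palmitate. Same-numbered libraries correlated between -0.0965 and 0.334 in their deviations, and differently numbered ones between -0.273 and 0.190. These ranges overlap and do not settle whether the numbers pair the libraries. Of 186 named genes, 0 reversed, and 11 lost their call in some alternative: CRELD2 (control 2, control 3, low 2), CYP27A1 (control 1, control 2, control 3, low 1, medium 1, medium 2), FOXA2 (control 1, control 3), INSR (control 1, control 2, low 2, low 3, medium 3), MT-CO3 (control 1, control 2, control 3, low 1, medium 3), MT-CYB (control 1, control 2, control 3, low 1, low 3, medium 3), MVK (control 2), PALM3 (control 3), PFDN2 (control 1, low 1), PHGDH (control 3) and SLC16A1 (control 2). In parentheses are the left-out libraries that ended a call. Depth limits weakly expressed genes, most of which were undetermined.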

Other observations

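Placement differed in share between gene types. Protein-coding genes numbered 4729 at control level (32.6%), 4015 higher, 3556 lower and 2187 undetermined. Long non-coding RNA genes numbered 146 at control level (4.32%), 716 higher, 320 lower and 2198 undetermined, and pseudogenes 139 at control level (8.11%), 213 higher, 144 lower and 1218 undetermined. At an average log2 CPM of 2 to 5, 1737 of 5004 protein-coding genes (34.7%) and 215 of 662 other genes (32.5%) were at control level. Under 0, 1134 of 2390 protein-coding genes (47.4%) and 586 of 3797 other genes (15.4%) were higher.

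Promoter letters were counted in the 200 bases before the start. Genes higher by 2-fold or more and at 4 CPM or more with butyrate held 3 or more GC boxes in 32.6% of 362 promoters. This share was 18.5% over all genes tested. It was 21.3% for all genes placed higher, 17.2% for lower, 20.9% for genes at control level and 11.9% for undetermined genes. At least 1 GC box stood in 69.6% of the 362, beside 67.4% for genes at control level and 61% over genes tested. Only the 362 had to pass a minimum CPM, set in the butyrate libraries where they are high. The median GC content of the 362 was 69.5%, against 66% over genes tested. No test was run on these shares.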
